A study of Homo sapiens with 2 samples.

Results

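The 8 genes TCP1, CCT2, CCT3, CCT4, CCT5, CCT6A, CCT7 and CCT8, which encode the subunits of the cytosolic chaperonin TRiC (also called CCT), were taken from a table of 60683 genes by matching their symbols to Ensembl identifiers. All 8 were present in the table and had counts in every library. The cells were HEK293T, a human embryonic kidney line that carries the SV40 large T antigen, with a stable short hairpin RNA knockdown of FKBP5, an immunophilin that binds HSP90. Both samples belong to this 1 knockdown group, and cells with a scrambled hairpin were not analysed here. The values below are therefore transcript levels in knockdown cells, and no effect of the knockdown was tested. The labels name neither the hairpin sequences nor a clone. They do not say whether the samples are separate cultures, and an SD then measures only the spread between these samples, which may be technical. The values of both samples are named as combined, and what was combined is not stated.

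TRiC is a double-ring chaperonin that closes over unfolded proteins and uses ATP to fold them. Each ring holds every one of the paralogous subunits once, in a fixed order, so the complex uses them in equal numbers. Actin and tubulin are its best known clients, and prefoldin and phosducin-like proteins deliver or regulate clients. TCP1, CCT2, CCT4 and CCT5 form the side of the ring that binds ATP more tightly, and CCT3, CCT6A, CCT7 and CCT8 the side that binds it more weakly. RNA levels do not give protein levels, so the question put to the counts is how evenly the transcripts of such a ring are present.

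Sample 1 held 9997706 counts and sample 2 held 21284648, a ratio of 2.13. FKBP5 itself had 41 and 77 counts, or 3.95 and 3.52 CPM (counts scaled to library size), in samples 1 and 2. All 6 markers fixed for the cell line (NEFM, INA, PAX2, LIN28B, VIM and CDH2) had at least 1 CPM, and of 7 markers of other cells only COL1A1 did, at 54.0 and 65.4 CPM. The 8 subunit genes together took 0.368% of all counts in sample 1, with a 95% Wilson interval of 0.364 to 0.372%. In sample 2 they took 0.333%, with an interval of 0.331 to 0.336%.

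TRiC transcripts were abundant but far from equal. Levels are compared between genes as CPM per kilobase of the principal transcript of each gene (GENCODE 29, GRCh38), and each is a mean ± SD over the samples (n = 2). The 8 means ran from 109 CPM per kilobase for CCT4 to 362 for CCT7, a ratio of 3.32, with a median of 143. The coefficient of variation over the subunits was 50.4% in sample 1 and 52.5% in sample 2, whereas the SD between the samples was 4.26 to 13.4% of a gene's mean. CCT7 and CCT3 stood out, CCT7 at 2.53 times the median of the 8. The other subunits, from CCT5 down to CCT4, were within a factor of 1.44 on this scale, and within 2.63 per kilobase of coding sequence. Every subunit gene was among the more abundant ones: 96.1 to 99.3% of the 13213 nuclear protein-coding genes with at least 1 CPM had a lower level per kilobase.

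On the side of the ring that binds ATP more weakly, CCT7 (the eta subunit) had 7436 and 14647 counts in samples 1 and 2. Its level was 717 CPM (95% exact Poisson interval 700 to 733) and 670 CPM (659 to 681), or 374 and 350 CPM per kilobase (362 ± 17.1). CCT3 (gamma) had 6670 and 12882 counts, which were 643 and 589 CPM, or 299 and 274 CPM per kilobase (287 ± 17.6). These values put both genes above every other subunit in both samples, and CCT7 above CCT3. CCT6A (zeta) had 4110 and 7852 counts, which were 396 and 359 CPM, or 146 and 132 CPM per kilobase (139 ± 9.58). CCT8 (theta) had 2418 and 4620 counts, which were 233 and 211 CPM, or 116 and 105 CPM per kilobase (111 ± 7.63). This side thus held both the highest genes and, in CCT8, one close to the bottom.

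The side that binds ATP more tightly was more even. CCT5 (epsilon) had 6160 and 12216 counts, which were 594 and 559 CPM, or 162 and 152 CPM per kilobase (157 ± 6.68). TCP1 (alpha) had 3937 and 7791 counts, which were 379 and 356 CPM, or 152 and 143 CPM per kilobase (147 ± 6.49). CCT2 (beta) had 3029 and 5272 counts, which were 292 and 241 CPM, or 143 and 118 CPM per kilobase (131 ± 17.6). Relative to its mean, CCT2 had the widest spread between the samples among the 8 genes (SD 13.4% of the mean). CCT4 (delta) had 3034 and 5625 counts, which were 292 and 257 CPM, or 116 and 102 CPM per kilobase (109 ± 9.83). Its mean was the lowest of the 8, although CCT8 had fewer counts, because the CCT4 transcript is longer (2520 bases against 2005).

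**Figure D1:**
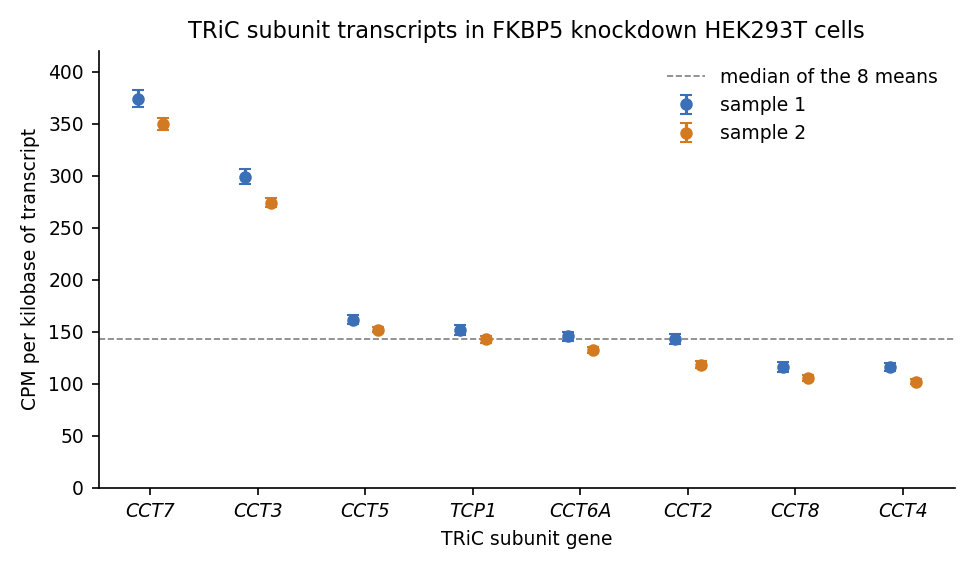
Level of each TRiC subunit gene in CPM per kilobase of its principal transcript (vertical axis) in samples 1 and 2, with 95% exact Poisson intervals, which cover counting error only; the dashed line is the median of the 8 means, 143. CCT7 and CCT3 stand apart above the other subunit genes in both samples, and every gene has its lower value in sample 2.

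The order of the levels per kilobase was CCT7, CCT3, CCT5, TCP1, CCT6A, CCT2, CCT8 and CCT4 in sample 1 and also in sample 2. Of the 7 neighbours in this order, 4 had sample values that did not overlap: CCT7 and CCT3, CCT3 and CCT5, CCT5 and TCP1, and CCT2 and CCT8. CCT5 and TCP1 were only just apart, at 152.1 (CCT5, sample 2) against 151.8 (TCP1, sample 1). TCP1 and CCT6A, CCT6A and CCT2, and CCT8 and CCT4 overlapped and did not differ beyond the spread between the samples. That spread includes the lower values that all subunit genes had in sample 2. Over all 28 pairs of subunits, 24 did not overlap, and all 28 kept their direction in both samples. In a ring with equal transcript numbers each subunit would hold 12.5% of the summed level. CCT7 held 24.8% of it in sample 1 and 25.4% in sample 2, CCT3 19.8 and 19.9%, and CCT4 7.70 and 7.42%. Both leading genes together held 44.6 and 45.3%. These shares use the length of the principal transcript, which is greatest for CCT5, and were not computed per kilobase of coding sequence. The share of CCT2 moved most between the samples, from 9.49 to 8.59%, and that of CCT8 least, from 7.71 to 7.66%.

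The lead of CCT7 did not depend on the transcript length chosen, and CCT5 had rank 3 under each length. The distance of CCT5 from CCT3 and from the median did depend on it. The rank of CCT4 was 8 on the principal transcript, 6 on its coding part and 4 on all annotated exons. The coding sequences of the 8 genes are nearly equal, 1593 to 1668 bases, while the principal transcripts run from 1916 bases (CCT7) to 3675 (CCT5). CCT5 carries 2052 noncoding bases, CCT7 only 287. Per kilobase of coding sequence CCT5 had 355 ± 15.1 CPM, which overlapped with CCT3 at 377 ± 23.1, and CCT7 had 426 ± 20.2. The lowest gene on that scale was CCT8 at 135 ± 9.31 CPM per coding kilobase, and the ratio of highest to lowest was 3.15. Per kilobase of all annotated exons CCT7 was again first and CCT2 last, with a ratio of 3.13. Which ends of the CCT5 transcript these cells use was not measured here. In base composition CCT7 and CCT3 also stood apart: 51.8 and 51.2% of their transcript bases are G or C, against 43.1 to 44.7% in the other subunit genes. The part of GC content in their higher counts was not tested.

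**Figure D2:**
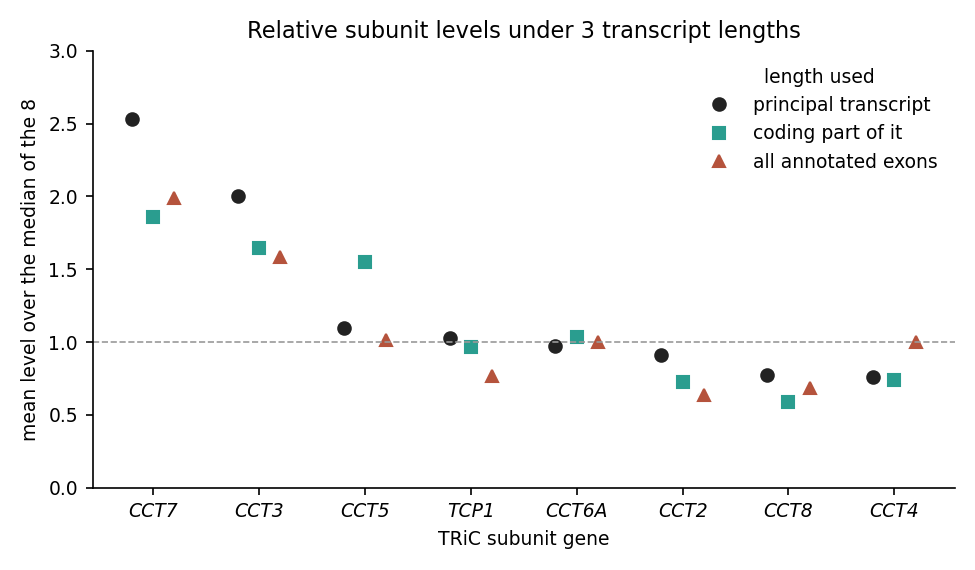
Mean level of each subunit gene divided by the median of the 8, on a linear axis, when counts are divided by the length of the principal transcript (circles), of its coding part (squares) or of all annotated exons (triangles). CCT7 is highest under each length, and CCT5 moves from close to the median to well above it on the coding scale.

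The genes lie on separate chromosomes except for CCT4 and CCT7, which share chromosome 2 (coordinates from GENCODE 29, GRCh38). CCT7 (ENSG00000135624) spans 73233420 to 73253021 on the plus strand of chromosome 2, and CCT4 (ENSG00000115484) spans 61868089 to 61888804 on the minus strand. CCT3 (ENSG00000163468) spans 156308968 to 156367873 on the minus strand of chromosome 1, and CCT5 (ENSG00000150753) 10249921 to 10266412 on the plus strand of chromosome 5. TCP1 (ENSG00000120438) spans 159778498 to 159789749 on the minus strand of chromosome 6. CCT6A (ENSG00000146731) spans 56051630 to 56063989 on the plus strand of chromosome 7, CCT2 (ENSG00000166226) 69585334 to 69601570 on the plus strand of chromosome 12, and CCT8 (ENSG00000156261) 29055805 to 29073797 on the minus strand of chromosome 21. Their principal transcripts have 11 (CCT5) to 16 (CCT2) exons. TCP1 and CCT6A each host 2 small nucleolar RNA genes, SNORA20 and SNORA29 in TCP1 and SNORA15 and SNORA22B in CCT6A.

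Reads of other genes could touch only part of these counts. For CCT2, CCT3 and CCT7, 100% of the 50-base stretches of the principal transcript occur in no other gene's transcript on either strand. The share was 93.3% for CCT6A, 91.4% for CCT8, 89.5% for CCT4, 77.9% for TCP1 and 50.2% for CCT5. For CCT5 the shared stretches belong mainly to AC012640.4, a gene on the opposite strand that had 0 counts in sample 1 and 1 in sample 2. The opposite-strand partner of TCP1, ACAT2, had 41.1 and 35.1 CPM. The libraries were directional per the labels, but how the counting treated strand is not known from them, so reads of such partners cannot be told apart from those of the subunit gene.

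Pseudogene copies of the subunit genes received few counts. Of 14 pseudogenes named after a TRiC gene in the table, 12 had a mean below 1 CPM and 3 of these had no count in either sample. The exceptions were both copies of CCT6A: CCT6P1 had 76 counts in sample 1 and 193 in sample 2 (8.08 ± 1.07 CPM), and CCT6P3 had 28 and 60 (2.72 ± 0.0331 CPM). All CCT6A copies together came to 2.55% of the CCT6A count in sample 1 and 3.27% in sample 2. For every other subunit gene the copies came to at most 0.346% of its count. The printed stretch of exon 11 of CCT6A (coding, chr7:56060821-56060900, plus strand) is set beside the matching stretch of CCT6P1 (a gene at chr7:65751142-65763354, plus strand) to show how close a copy is. It was chosen as the 80-base stretch of 1 coding exon whose share of differing bases is nearest to that of the whole alignment. Both sequences are from GENCODE 29 transcripts, and capitals mark the bases that differ.
CCT6A: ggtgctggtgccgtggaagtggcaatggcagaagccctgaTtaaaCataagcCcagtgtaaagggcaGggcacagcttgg
CCT6P1: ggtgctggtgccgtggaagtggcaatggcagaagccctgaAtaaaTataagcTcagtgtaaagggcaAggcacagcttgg
They differ at 4 of 80 bases, and over 1532 aligned bases the identity of CCT6P1 with CCT6A was 94.7%. How the counting treated reads that fit several genes is not known, so the split between CCT6A and its copies is uncertain. The copies' counts are small beside the gap between CCT6A and CCT3.

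CCT6A has a second functional copy, CCT6B, which is expressed mainly in testis. CCT6B had 12 counts in sample 1 and 30 in sample 2, or 1.16 and 1.37 CPM. Its level of 0.688 ± 0.0832 CPM per kilobase was lower than that of CCT6A by a factor of 202. Of the other chaperonin-like genes, BBS10 had 5.27 ± 0.592 and MKKS 2.23 ± 0.438 CPM per kilobase, both of them parts of the complex that assembles the BBSome of cilia. CCT8L2 had 0 and 3 counts.

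All 8 subunit genes had a lower CPM in sample 2 than in sample 1. A 2-sided exact binomial test, which compares the libraries and not conditions, called 8 of 8 lower in sample 2 at a Benjamini-Hochberg adjusted p under 0.05. Of all 15530 genes tested, 4.56% were called lower, 4.41% higher and 8.97% in either direction. The test holds counting error only and calls small differences in abundant genes: among the 2282 genes of 100 CPM or more, the group to which the subunit genes belong, it called 16.4% lower. The median log2 ratio of CPM + 1 (sample 2 over sample 1) was -0.13 over the 8 genes, 0.01 over all genes tested and -0.02 over those with at least 100 CPM.

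The differences were small except for CCT2. CCT2 went from 292 to 241 CPM, a log2 ratio of -0.27 (exact binomial adjusted p = 4.29e-14), and only 0.701% of the genes with at least 100 CPM had a lower ratio. CCT4 went from 292 to 257 CPM, a log2 ratio of -0.18 (exact binomial adjusted p = 2.04e-06). The others had log2 ratios from -0.14 (CCT6A and CCT8) to -0.09 (CCT5 and TCP1). TCP1 was nearest to the threshold, with an exact binomial adjusted p of 0.0226. Among the genes with at least 100 CPM the central 95% of log2 ratios ran from -0.20 to 0.21, so 7 of the 8 subunit genes lay inside the ordinary spread between these libraries and CCT2 outside it. As the depth of the libraries also differed 2.13-fold, the part of depth in these differences was not tested.

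**Figure D3:**
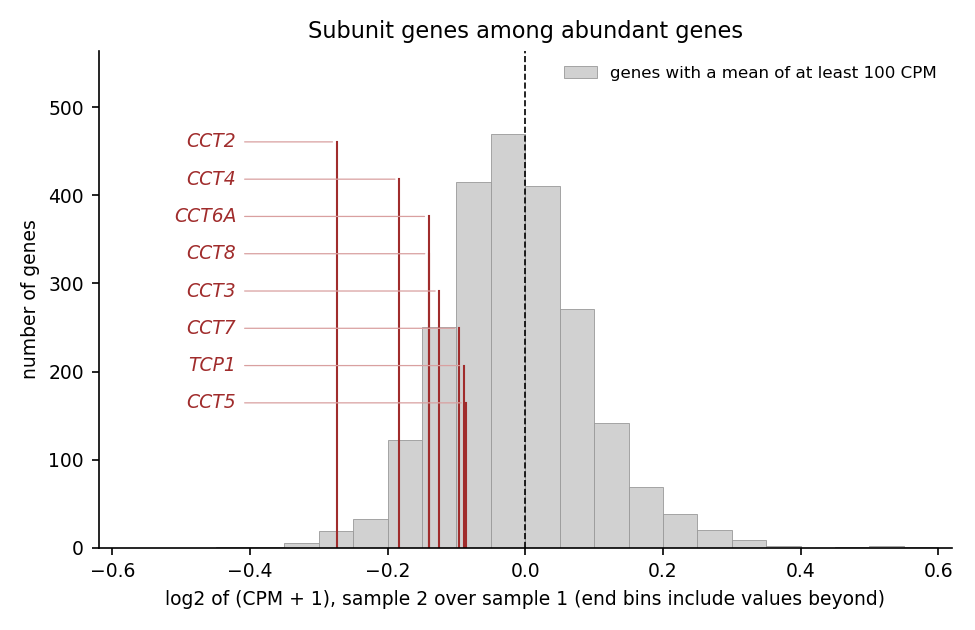
Number of genes (vertical axis) by log2 ratio of CPM + 1 of sample 2 over sample 1 for the 2282 genes whose mean was 100 CPM or more, with a line at the ratio of each TRiC subunit gene; line height has no meaning. All 8 lines are left of 0, from -0.27 for CCT2 to -0.09 for CCT5, and only CCT2 lies outside the central 95%.

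The promoters of the subunit genes are described as sequence only, and their part in the difference between the libraries was not tested. RefSeq promoters (GRCh38.p14, 250 bases before to 50 after a start) matched 7 of the 8 genes, in 9 windows; CCT6A was not matched. The promoters of CCT7, the highest subunit gene, and CCT2, the one that differed most between the libraries, are printed 5′ to 3′ with motif matches in capitals (CCT7 at chr2:73234058-73234357, plus strand; CCT2 at chr12:69585209-69585508, plus strand).
CCT7: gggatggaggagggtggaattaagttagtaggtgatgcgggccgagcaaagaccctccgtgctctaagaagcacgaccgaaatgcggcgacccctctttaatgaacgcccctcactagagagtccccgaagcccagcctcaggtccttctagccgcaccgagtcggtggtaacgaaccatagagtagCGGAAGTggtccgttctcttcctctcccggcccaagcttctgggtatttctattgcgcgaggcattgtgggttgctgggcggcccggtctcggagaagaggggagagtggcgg
CCT2: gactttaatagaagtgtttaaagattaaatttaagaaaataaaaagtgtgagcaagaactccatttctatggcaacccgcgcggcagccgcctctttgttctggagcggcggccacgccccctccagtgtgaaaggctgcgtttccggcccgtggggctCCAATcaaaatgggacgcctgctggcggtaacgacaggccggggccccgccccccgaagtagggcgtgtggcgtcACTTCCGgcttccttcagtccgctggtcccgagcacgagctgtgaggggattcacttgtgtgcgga
Motifs were searched on both strands. An ETS-type site, CGGAAGT, was found in 3 of the 9 windows (of CCT2, CCT7 and TCP1), and 6.83% of 35116 promoter windows hold it. The CCAAT box, CCAAT, was found in 4 of the 9 windows (of CCT2, CCT3, CCT8 and TCP1), against 34.6% of all windows. Paired units of the heat shock element, GAANNTTC, were found in 2 of the 9 windows, those of TCP1 and of a second start of CCT2, against 6.77% of all windows. No window of the 7 genes held TATAAA, which 11.5% of windows hold. The only CCT5 window (chr5:10250287-10250586) begins after the annotated gene start at 10249921. The windows of CCT3 and CCT7 also lie inside the gene spans given above. Sequence before the annotated starts of CCT3, CCT5 and CCT7 was therefore not searched. These motifs were chosen with the sequences in view, do not overlap each other in the printed windows, and are matches of letters only.

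Cofactor genes of TRiC, TBCA excepted, had lower levels per kilobase than the median of the ring. The 6 subunit genes of prefoldin, the complex that hands unfolded actin and tubulin to TRiC, had a median of 35.8 CPM per kilobase, so the TRiC median was 3.99 times as high, and 1.95 times as high per coding kilobase. PFDN5 had 121 ± 8.60 and PFDN2 100.3 ± 3.97 CPM per kilobase, and PFDN4 was lowest at 14.2 ± 0.156. Of the 7 prefoldin-like and phosducin-like cofactors 6 had at least 1 CPM, with a median of 13.1 CPM per kilobase over the list. URI1 led at 27.8 ± 0.255 and UXT followed at 18.2 ± 0.373, while PDCL2, a germ-cell gene, had 1 count in each sample. Of the 7 genes listed as tubulin cofactors, TBCA, above the TRiC median, had 182 ± 4.96 and TBCB 60.4 ± 4.40 CPM per kilobase. TBCE was listed lowest at 1.18 ± 0.0237, but only 2.38% of its 50-base stretches are its own. Of the 19 prefoldin, prefoldin-like, phosducin-like and tubulin cofactor genes tested, 1 was called lower in sample 2 and 0 higher, where 4.56% of all genes tested were called lower. That gene was PFDN6, named after its value was seen, with 29.3 and 21.0 CPM.

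Client genes of TRiC were expressed over a wide range. Among 18 known clients the actin genes ACTB and ACTG1 led, at 1482 ± 63.8 and 1406 ± 3.73 CPM per kilobase, and WRAP53, which guides telomerase RNA to Cajal bodies, was lowest at 19.3 ± 1.12. The binomial test called 3 of the 18 lower in sample 2 and 0 higher, beside 4.56% called lower among all genes tested and 16.4% among those of 100 CPM or more, and the median log2 ratio was -0.05. The 3 were ACTB, with 2934 and 2761 CPM, and, named after their values were seen, the mTOR partner MLST8, with 327 and 294 CPM, and the mitotic regulator FZR1, with 151 and 138 CPM. Of 4 genes of the heat shock regulator and HSP70 partners, 2 were called lower in sample 2 and 0 higher. HSPA8, the constitutive HSP70 that passes clients to TRiC, had 910 and 732 CPM, a log2 ratio of -0.31, and was called lower. DNAJA1, an HSP40 partner of HSP70 named after its values were seen, had 168 and 139 CPM, a log2 ratio of -0.27, and was also called lower. HSF1, the heat shock transcription factor, had 162 and 172 CPM, and DNAJB1, a co-chaperone of HSP70, 135 and 127 CPM, and neither passed the test. The mitochondrial chaperonin gene HSPD1 had 354 ± 8.29 CPM per kilobase, close to CCT7, and did not pass the test (884 and 855 CPM).

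The spread over TRiC subunits was set beside other assemblies that hold each subunit once. The ratio of highest to lowest mean level per kilobase was 3.32 for TRiC, 3.54 for the proteasome beta ring, 6.84 for the MCM2-7 helicase ring, 8.56 for prefoldin and 232 for the proteasome alpha ring. The corresponding coefficients of variation were 51.4, 39.2, 55.6, 78.1 and 152%. Per kilobase of coding sequence, a scale added for the other assemblies after the data were seen, the ratio was 3.15 for TRiC, 2.03 for the beta ring, 6.18 for MCM2-7, 4.31 for prefoldin and 153 for the alpha ring. TRiC thus had the smallest ratio on the transcript scale and the beta ring on the coding scale. MCM7 and MCM2 led their ring at 149 ± 4.11 and 91.8 ± 1.63 and MCM6 was lowest at 21.8 ± 0.281 CPM per kilobase. In the beta ring PSMB4 had 283 ± 11.8, PSMB6 182 ± 16.6 and PSMB2 79.9 ± 1.83. In the alpha ring PSMA7 had 270.2 ± 9.86 and PSMA3 108 ± 2.57, while PSMA1, PSMA2 and PSMA6, which share exonic bases with a same-strand gene (PSMA1 and PSMA6 named after their values were seen), had 1.16 to 3.84. Without these 3 genes the ratio in the alpha ring was 9.76 over 4 genes. HSPE1, the partner of HSPD1, also overlaps such a gene and was 34.2 times below HSPD1. The part of the overlaps in these low values was not tested. Among the TRiC genes only TCP1 has same-strand overlap, with 3.08% of its exonic bases under SNORA20 and SNORA29, which had 1 count between them. The TRiC spread is thus measured on genes nearly free of same-strand overlap. On the opposite strand, CCT5, CCT4 and TCP1 share 30.1, 12.6 and 8.05% of their exonic bases with other genes. The part of these opposite-strand overlaps in the spread was not tested. Of the other rings, the binomial test called 4 of 7 beta ring genes lower in sample 2. The median of their log2 ratios was -0.15, beside the -0.13 of TRiC. The test called 1 of 6 MCM2-7 genes and 1 of 7 alpha ring genes lower, and none of the genes of these 3 rings higher. Of all genes tested, 4.56% were called lower and 4.41% higher. Among those of 100 CPM or more, 16.4% were called lower. No test compares the assemblies, which differ in number of subunits.

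**Figure D4:**
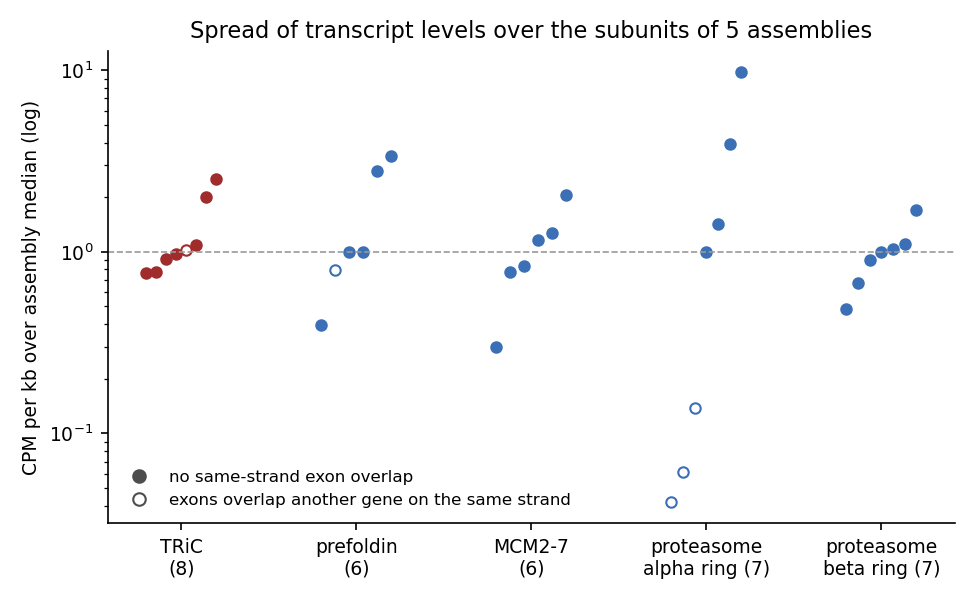
Mean level per kilobase of each subunit gene divided by the median of its assembly (logarithmic vertical axis) for TRiC and 4 other assemblies; open circles are genes whose exons overlap another gene on the same strand. TRiC genes lie within a ratio of 3.32, and the 3 lowest genes of the proteasome alpha ring are all open circles.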

How the data were processed

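RNA was sequenced from 2 samples of 1 group, by the genotype label, and a sample's number comes from its title. The authors deposited whole-number counts per Ensembl gene, with no normalization, and CPM per sample. Per the submitters' processing notes, STAR 2.7.7a, edgeR and GRCh38 were used. Neither the program that counted reads nor its annotation is named there. Dividing the authors' CPM by the value of 1 read gave whole reads for 100% of values (tolerance 1e-06). The authors' CPM sum to 963583 and 973939 in samples 1 and 2, so the library size behind them exceeded the total of the counts.

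CPM were divided by the length of the principal GENCODE 29 transcript (best APPRIS level, then transcript support, then longest coding sequence). Of the gene IDs, 96.0% are in that annotation. Log2 ratios use a pseudocount of 1 CPM. The exact binomial test, adjusted over 15530 genes whose mean was 1 CPM or more, was tested on simulated data. Intervals are 95% and cover counting error only, since reads carry no stated molecular identifiers. The members and lists were chosen with earlier results of these data known. Named genes are the 8 members, FKBP5, CCT6B, the 2 pseudogenes of highest CPM, and the 2 highest and 1 lowest gene per kilobase of each list; others are said to have been named after their values were seen. With 2 samples of 1 group, no genes were sought by likeness of pattern. Alternatives were another length, scaling, CPM minimum and pseudocount, and leaving out each sample. Tools were R 4.3.3 with edgeR 4.0.16 (for TMM factors) and Python 3.11.15 with scipy 1.17.1, statsmodels 0.14.6, numpy 2.4.6, pandas 2.3.3 and biopython 1.88.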

Additional observations from a re-analysis of the deposited data

How the results depend on the processing

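The ratio of the highest to the lowest subunit gene per kilobase, 3.32, was 3.13 with the length of all annotated exons and 3.15 with the coding length, and the coefficient of variation of 51.4% was 43.3% and 42.2%, by the construction of those lengths. CCT7 was highest under every length, scaling and sample left out, while the lowest gene was CCT4, CCT2 or CCT8 depending on the length. Leaving out 1 sample gave ratios of 3.22 to 3.42 and coefficients of variation of 50.4 to 52.5%. All 8 genes were called lower in sample 2 under both other scalings and with a minimum of 10 CPM. With no filter 7 were, TCP1 having an exact binomial adjusted p of 0.0592 among 41325 genes; its range over the alternatives was 0.00466 to 0.0592. No subunit gene changed direction under any scaling or pseudocount. No paired analysis was possible because there is 1 group. At 2418 or more counts per gene, depth limits these levels less than the length and the spread between the samples.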
